A study of Mus musculus with 6 samples.

Results

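The genes described here encode proteins of both ribosomes of the mouse cell, the cytosolic and the mitochondrial one. They were picked by gene name from a table of 17546 genes. Names of the Rps and Rpl series with Rplp0, Rplp1, Rplp2 and Rpsa gave 81 cytosolic members, 32 of the small and 49 of the large subunit. Names of the Mrps and Mrpl series gave 78 mitochondrial members, 29 of the small and 49 of the large subunit. Names of pseudogenes were left out, and the subunit was read from the name. All 159 members passed the filter on low counts, and they lie on 20 chromosomes. Rpl3l and Rpl10l were not analysed here.

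The RNA came from group 2 innate lymphoid cells (ILC2s), tissue-resident lymphocytes that carry no antigen receptor and release type 2 cytokines. The cells were taken from lungs of BALB/c mice given 3 intranasal injections of 1 µg of the alarmin IL-33, and every culture medium contained 10 ng/mL of IL-2 and as much IL-7. Cells were treated for 24 h with DMSO (libraries DMSO 1, 2 and 3) or with Yoda1 at 10 µM (libraries Yoda1 4, 5 and 6). The labels do not say whether each library came from a separate culture. Yoda1, a small molecule, acts by opening Piezo1, which is a cation channel gated by membrane tension. The comparison asks what opening this channel does to transcript levels in ILC2s.

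The cytosolic ribosome translates the messages of the nuclear genome, and its proteins are made in step with ribosomal RNA when cells grow. Many of its messages begin with a run of pyrimidines, the 5′ terminal oligopyrimidine (TOP) tract, through which mTOR signalling and the protein LARP1 control their translation. The mitochondrial ribosome translates the few messages of mitochondrial DNA, which encode subunits of the respiratory chain and of ATP synthase, while its own proteins are encoded in the nucleus and imported.

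The libraries held 14214048 to 31627519 counts each. The 10 ILC2 markers examined, among them Gata3 and Il1rl1, summed to 9010 to 9656 CPM (counts scaled by TMM library size) in DMSO and to 10500 to 11509 CPM in Yoda1. Summed epithelial markers ran from 91.6 to 418 CPM in DMSO and from 55.2 to 76.1 CPM in Yoda1, with Sftpb outside the table. Summed T cell markers ran from 34.2 to 36.6 and from 19.3 to 29.8 CPM, with Cd4 and Cd8a outside the table. Macrophage and monocyte markers ran from 10.5 to 13.5 and from 19.0 to 23.9 CPM, with Marco and Mrc1 outside the table. Red cell markers ran from 6.33 to 8.72 and from 10.0 to 19.1 CPM, with Hbb-bs and Hbb-bt outside the table. The groups did not overlap in any of these 5 sums, whose part in the results below was not tested. Markers of B cells, NK cells, eosinophils and mast cells, and endothelium and fibroblasts were summed too, each with 1 or 2 genes in the table. In each of those sums the groups overlapped. In such bulk RNA, fewer cells of a type and less RNA per cell cannot be told apart.

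Sequence around the annotated starts is shown first because it is a feature of the members that their names did not use and in which the shares of the ribosomes differ. RefSeq windows on GRCm38.p6, from 250 bases before to 50 after the start, were matched for 59 of 81 cytosolic and 69 of 78 mitochondrial members. Where a gene had several windows, the one listed first was used. The starts are annotated and were not measured in these cells, so a member without a run here may still have a TOP tract. At least 5 pyrimidines in a row from the annotated first base onward were found in 16 cytosolic windows (27.1%) and in 1 mitochondrial window (1.45%). The share was 4.36% of the 27025 windows of the whole table. The windows below hold the 15 bases before the start followed by the first 15 bases of the transcript, 5′ to 3′ on the gene's strand, with the longest pyrimidine run in that stretch in capitals where it has 4 bases or more. They show 4 cytosolic members in which the run covers the start, Rps9, in which most of it lies before the start, and the mitochondrial Mrpl1 and Mrps17.
Rps6 (chr4:86857353-86857382, minus strand): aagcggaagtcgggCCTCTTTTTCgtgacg
Rps27 (chr3:90213634-90213663, minus strand): atttccgctttcgCTCCTTTCCggcggtga
Rplp2 (chr7:141447636-141447665, plus strand): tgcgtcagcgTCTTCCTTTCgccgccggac
Rpl38 (chr11:114668565-114668594, plus strand): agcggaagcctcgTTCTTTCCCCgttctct
Rps9 (chr7:3704026-3704055, plus strand): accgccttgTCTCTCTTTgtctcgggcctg
Mrpl1 (chr5:96210100-96210129, plus strand): ttcgcaTTTCCgtgcagttgaaacccggga
Mrps17 (chr5:129715482-129715511, plus strand): gggctagcgcaccgtgagcgtcatcacgct

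A run of 8 or more pyrimidines within 20 bases of the start was present in 28 cytosolic (47.5%) and 12 mitochondrial windows (17.4%), against 15.9% of all windows. The core recognised by ETS family factors, CCGGAAG on either strand, was present in 24 cytosolic (40.7%) and 25 mitochondrial windows (36.2%). All windows held it in 9.12% of cases, and those of the tested genes in 20.05%, so that both ribosomes were above each of these shares. Windows of 30 bases around this core, in capitals as it reads on the gene's strand, are given for 3 cytosolic and 2 mitochondrial members whose cores lie at different distances from the start.
Rps2 (chr17:24719924-24719953, plus strand): tatttatacgtcCTTCCGGctggtgtaggg
Rps6 (chr4:86857441-86857470, minus strand): gttaatctacgcCCGGAAGtaacgcccctc
Rpl38 (chr11:114668548-114668577, plus strand): ggggttaaccgtCCGGAAGcggaagcctcg
Mrps18a (chr17:46110966-46110995, plus strand): cacacccctgctCCGGAAGcggaagtgcac
Mrps26 (chr2:130563731-130563760, plus strand): gctccgcggccaCTTCCGGgccgggcgcag
The core began 127 bases before the start in Rps2, 91 in Rps6, 20 in Rpl38, 26 in Mrps18a and 14 in Mrps26. The E-box CACGTG, which reads the same on both strands, was in 8.47% of cytosolic, 7.25% of mitochondrial and 7.24% of all windows, and in 10.6% of those of the tested genes. The NRF-1 core GCATGCG on either strand was in 6.78% of cytosolic, 11.6% of mitochondrial and 3.64% of all windows, and in 6.99% of those of the tested genes. These matches are letters in a window and do not show that a factor binds there.

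Transcripts of the cytosolic ribosome were the more abundant set. Levels of different genes were compared as CPM per kilobase of merged exon, the union of a gene's exons in GENCODE M21. The median over members was 121 CPM per kb for the cytosolic and 29.7 for the mitochondrial ribosome, and with the length of the principal transcript alone it was 300 and 54.2. The median of all tested genes was 5.25 CPM per kb of merged exon.

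The highest cytosolic levels were those of Rplp1, a protein of the acidic stalk that recruits translation factors, at 720 CPM per kb, and of Rpl19, a large subunit protein, at 680. The partners of Rplp1 in the stalk stood lower, Rplp0 at 632 and Rplp2 at 121 CPM per kb of merged exon; with principal transcript length these were 720 for Rplp1, 772 for Rplp0 and 259 for Rplp2. The lowest were Rpl39l at 0.907, Rpl6l at 6.98 and Rpl32l at 8.24 CPM per kb; Rpl6l, Rpl32l and Rps4l are the 3 members that GENCODE M21 does not list as protein coding. The paralog pairs were unequal, with Rpl39 at 54.4 against 0.907 for Rpl39l, the copy known from testis, while Rps27l, a target of p53, stood at 293 against 187 for Rps27.

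Among mitochondrial members the highest levels were those of Mrpl18, at 156 CPM per kb, Mrps21, at 147, and Mrpl28, at 130. The lowest were Mrpl47 at 3.88, Mrps35 at 4.83 and Mrpl48 at 6.36. Of the 3 Mrps18 paralogs, Mrps18c stood at 85.7, Mrps18b at 42.3 and Mrps18a, which structures place in the large subunit despite its name, at 21.1 CPM per kb of merged exon. With principal transcript length the same 3 stood at 145, 81.9 and 88.1, so that the order of Mrps18a and Mrps18b depends on the length used. Longer transcripts had lower levels per kb, with a Spearman correlation of -0.84 over the 78 mitochondrial and -0.41 over the 81 cytosolic members; level and length share the length as a divisor. The profile of levels was similar in the 6 libraries: Pearson's r of log2 CPM per kb between libraries ran from 0.972 to 0.998 over cytosolic and from 0.971 to 0.990 over mitochondrial members, as a description over genes measured in the same 6 libraries.

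**Figure D1:**
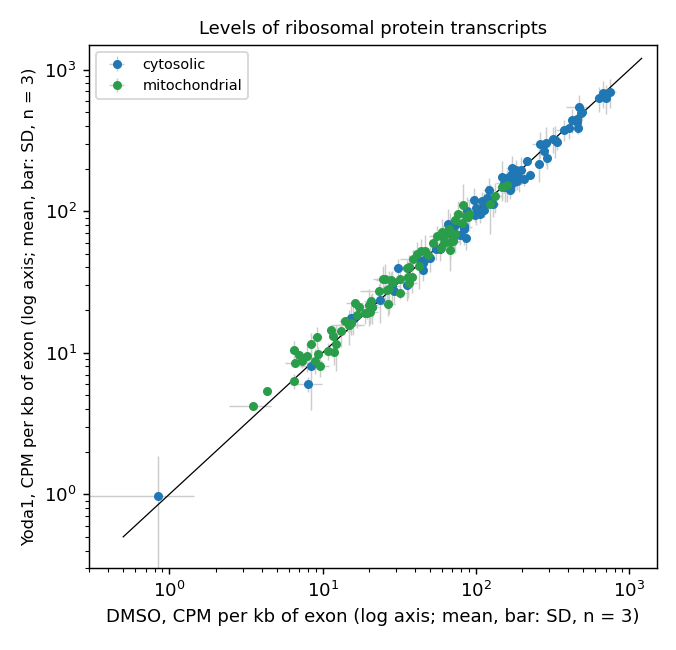
Mean level of each of the 159 members in DMSO (x axis) and Yoda1 (y axis), in CPM per kb of merged exon on log axes, with SD bars over 3 libraries; blue points are cytosolic and green points mitochondrial members. The points follow the line of equal levels from 0.907 CPM per kb (Rpl39l, mean of all 6 libraries) to 720 (Rplp1).

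No ribosomal protein gene passed the test for a difference between Yoda1 and DMSO. Of all 13325 genes tested, 0.57% were higher and 0.923% lower at an adjusted p under 0.05 (edgeR quasi-likelihood test, Benjamini-Hochberg), and 0 of 81 cytosolic and 0 of 78 mitochondrial members were among them. At an unadjusted p under 0.05, 5 cytosolic members (6.17%) were lower and 0 higher, and 7 mitochondrial members (8.97%) were higher and 0 lower, where all tested genes gave 7.39% higher and 7.11% lower. Of the 2328 tested genes at 100 CPM or more, which include most cytosolic members, 13.1% were higher and 13.3% lower by the same rule. Of the 8428 at 10 CPM or more, 10.1% were higher and 8.85% lower. DESeq2, as another tool, called 1 cytosolic member lower (Rps2) and 1 mitochondrial member higher (Mrpl1), where it called 3.53% of all genes lower and 3.03% higher, and limma voom called 0 members.

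The differences were small as well as uncalled. The median log2 fold change was -0.01 over cytosolic, 0.09 over mitochondrial and 0.01 over all tested genes. It was -0.07 in the small and -0.01 in the large cytosolic subunit, and 0.12 and 0.08 in the small and large mitochondrial ones. Signs were 37 positive and 44 negative for the cytosolic and 54 positive and 24 negative for the mitochondrial ribosome. The positive shares were 45.7% and 69.2%, against 51.0% of all tested genes and 55.7% of those at 10 CPM or more. Other genes at 10 CPM or more with principal transcripts of up to 1000 bases gave 61.7%. By the same limit, the 25 mitochondrial members of up to 1000 bases gave 68.0% and the 53 longer ones 69.8%. The 52 cytosolic members of up to 1000 bases gave 48.1% and the 26 longer ones 42.3%. Cytosolic log2 fold changes ran from -0.42 to 0.36 with an SD over genes of 0.16. Both ends belong to members not listed as protein coding, and the 78 cytosolic members with a principal transcript ran from -0.41 to 0.30. Mitochondrial log2 fold changes ran from -0.34 to 0.68 with an SD of 0.21. Those of all tested genes had an SD of 0.70. This SD was 0.40 for genes at 10 CPM or more and 0.30 at 100 CPM or more. The 95% interval of the fold change lay within 1.5-fold in either direction for 66 of 81 cytosolic and 41 of 78 mitochondrial members, and within 2-fold for 78 and 76.

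**Figure D2:**
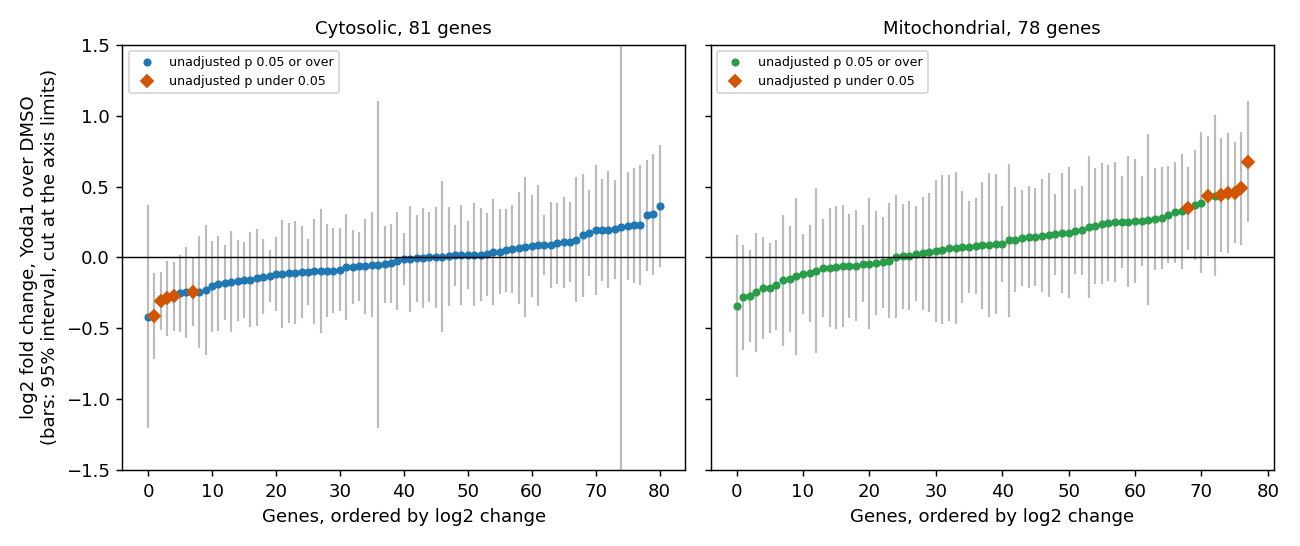
The log2 fold change of Yoda1 over DMSO for each member, ordered by size, with its 95% interval from edgeR as a grey bar; orange diamonds mark an unadjusted p under 0.05. All 5 diamonds among the 81 cytosolic members are below 0 and all 7 among the 78 mitochondrial members are above it; the interval of Rpl39l runs past the axis limits.

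The cytosolic member nearest to the threshold was Rps2 (ENSMUSG00000044533, GRCm38 chr17:24718116-24721929, plus strand), a small subunit protein at the channel where messenger RNA enters. It had 416, 413 and 400 CPM in DMSO 1 to 3 and 309, 329 and 355 CPM in Yoda1 4 to 6, so that every Yoda1 library was below every DMSO library. Its means were 410 ± 8.78 and 331 ± 23.1 CPM (SD, n = 3), a log2 fold change of -0.31 ± 0.09 (SE), with an adjusted p of 0.153 in edgeR's quasi-likelihood test and 0.0243 in DESeq2. Its adjusted p ran from 0.0243 to 0.653 over the 18 other settings. Of the counts given to Rps2 and its 9 pseudogenes in the table, 60.4% stood with the pseudogenes, and with these added to the gene the log2 fold change was -0.25 and the adjusted p 0.173 (edgeR). How reads were divided between such copies was not given in the sources used here, so the level of Rps2 is uncertain.

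The other cytosolic members with an unadjusted p under 0.05 had the same sign, and in each of them the 3 Yoda1 libraries were below the 3 DMSO libraries. Rpl21, a large subunit protein, had 289, 298 and 286 CPM in DMSO and 179, 222 and 255 CPM in Yoda1, a log2 fold change of -0.41 ± 0.13 (edgeR, adjusted p 0.193). Rps4x, the X-linked form of a small subunit protein, had 338, 325 and 334 CPM in DMSO and 240, 288 and 296 CPM in Yoda1 (log2 fold change -0.27 ± 0.11). Rps9, a small subunit protein, had 755, 736 and 692 CPM in DMSO and 506, 592 and 691 CPM in Yoda1 (-0.29 ± 0.12). In Rps9 the groups all but touched, at 692 CPM in DMSO 3 and 691 CPM in Yoda1 6. Rps29, a small zinc-binding protein of the small subunit, had 335, 312 and 310 CPM in DMSO and 237, 285 and 286 CPM in Yoda1 (-0.24 ± 0.11). In all of these genes Yoda1 4 held the lowest value.

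Groups did not overlap for 9 cytosolic members (11.1%), 8 with Yoda1 lower and 1 with Yoda1 higher, where 22.6% of all tested genes had groups apart. At 100 CPM or more this share was 32.1%. The 8 were Rps2, Rpl21, Rps4x, Rps9, Rps29, Rps26, Rps28 and Rpl3, and the 1 was Rps4l. Rpl3, a protein of the peptidyl transferase region, had 570, 572 and 535 CPM in DMSO and 503, 498 and 533 CPM in Yoda1, and it had the smallest spread within groups of all cytosolic members, an SD of 0.05 in log2 CPM. Its log2 fold change was -0.13 ± 0.08 (edgeR, adjusted p 0.517). Rps4l had 28.5, 31.8 and 27.5 CPM in DMSO and 33.1, 35.8 and 44.2 CPM in Yoda1, opposite in sign to Rps4x (log2 fold change 0.36 ± 0.19, edgeR, adjusted p 0.428).

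Some members with known roles in signalling, development or the stalk are given whatever their values. Rps6, the substrate of the S6 kinases below mTOR, had 792, 779 and 735 CPM in DMSO and 634, 782 and 925 CPM in Yoda1, and its groups overlapped throughout. Its log2 fold change was 0.02, with a 95% interval from -0.27 to 0.32. Rpl38, needed for the translation of Hox messages in the embryo, had 193, 170 and 154 CPM in DMSO and 146, 166 and 218 CPM in Yoda1 (log2 fold change 0.04, interval -0.34 to 0.41). Rpl22, whose loss in mice blocks development of some T cells, had 47.7, 43.3 and 43.1 CPM in DMSO and 39.4, 49.9 and 64.2 CPM in Yoda1 (0.20, interval -0.26 to 0.65). For Rpl38 and Rpl22 too, Yoda1 4 was the lowest library and Yoda1 6 the highest.

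Rplp0, a stalk protein often used as a reference transcript, had 1147, 988 and 1018 CPM in DMSO and 872, 990 and 1275 CPM in Yoda1, so that 1 Yoda1 library was below and 1 above all DMSO libraries. Rplp1 and Rplp2 had log2 fold changes of -0.10 ± 0.16 and -0.19 ± 0.15. The narrowest intervals belonged to abundant members such as Rpl4, at 896, 936 and 902 CPM in DMSO and 833, 902 and 974 CPM in Yoda1 (log2 fold change -0.01, interval -0.20 to 0.17). Rpl10, a protein added late in assembly of the large subunit, had a log2 fold change of 0.09 (interval -0.13 to 0.30). Rpsa, also known as the laminin receptor, had -0.10 (-0.33 to 0.13), and Rps3, a small subunit protein that also acts in DNA repair, 0.11 (-0.17 to 0.39). Rpl41, the smallest of the ribosomal proteins, had 0.00 (-0.32 to 0.32). At the other end, Rpl39l had 0.0645 to 1.55 CPM per library and an interval from -2.15 to 2.58, so that no difference was detectable at this depth.

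The mitochondrial member nearest to the threshold was Mrpl1 (ENSMUSG00000029486, GRCm38 chr5:96209493-96266727, plus strand), a protein of the large subunit. It had 29.0, 29.3 and 25.7 CPM in DMSO and 36.8, 49.3 and 48.3 CPM in Yoda1, with all Yoda1 libraries above all DMSO libraries. The means were 28.0 ± 2.03 and 44.8 ± 6.94 CPM (SD, n = 3), a log2 fold change of 0.68 ± 0.19, with an adjusted p of 0.13 in edgeR's quasi-likelihood test and 0.015 in DESeq2. Its adjusted p ran from 0.015 to 0.471 over the 18 other settings, with a positive log2 fold change in each.

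Mrpl9, of the large subunit, had 39.7, 50.01 and 42.1 CPM in DMSO and 61.1, 62.3 and 57.8 CPM in Yoda1, and its groups did not overlap (log2 fold change 0.46 ± 0.16, edgeR, adjusted p 0.218). Unlike most members, it was lowest of the Yoda1 libraries in Yoda1 6. Mrpl32, which must be cleaved by the mitochondrial AAA protease to enter the large subunit, had 49.1, 41.7 and 46.6 CPM in DMSO and 55.2, 60.2 and 77.3 CPM in Yoda1 (0.49 ± 0.18, edgeR, adjusted p 0.243). Mrps17, of the small subunit, had 70.5, 79.2 and 72.3 CPM in DMSO and 93.0, 87.1 and 102 CPM in Yoda1 (0.35 ± 0.13, edgeR, adjusted p 0.268). Mrps31 had 22.0, 24.9 and 22.1 CPM in DMSO and 29.0, 32.03 and 33.8 CPM in Yoda1, also apart. In Mrps30, which structures place in the large subunit despite its name, the groups overlapped, with 51.5, 56.7 and 60.1 CPM in DMSO and 81.6, 59.4 and 87.6 CPM in Yoda1. Mrpl24 overlapped as well, with 62.0, 52.8 and 52.1 against 61.2, 70.6 and 93.6 CPM.

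Groups were apart for 13 mitochondrial members, all with Yoda1 higher (16.7%), and for 0 with Yoda1 lower. Of all tested genes, 10.6% were apart with Yoda1 higher and 12.0% with Yoda1 lower. These shares were 13.8% and 11.7% at 10 CPM or more, and 15.7% and 16.4% at 100 CPM or more. Besides those above, the members apart were Mrpl15, Mrpl19, Mrpl36, Mrpl39, Mrps2, Mrps9, Mrps34 and Mrps35. Mrpl19 had the smallest spread within groups of the mitochondrial members, with 62.9, 63.0 and 63.7 CPM in DMSO and 69.1, 68.4 and 77.7 CPM in Yoda1 (log2 fold change 0.18 ± 0.13). Mrps35 had 38.2, 38.5 and 34.7 CPM in DMSO and 45.04, 45.2 and 48.8 CPM in Yoda1 (0.32 ± 0.16). Mrpl36 had 81.9, 78.1 and 72.4 against 91.1, 82.2 and 87.2 CPM (0.16 ± 0.13), its groups parted by less than 1 CPM.

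Among the other mitochondrial members named by role, signs were mixed. Mrpl12, the stalk protein that also binds the mitochondrial RNA polymerase, had 106, 118 and 110 CPM in DMSO and 111, 137 and 151 CPM in Yoda1 (log2 fold change 0.26 ± 0.14). Mrps12, at the decoding site, had 73.0, 72.0 and 75.9 against 64.9, 59.7 and 79.8 CPM (-0.11 ± 0.15), and Mrpl45, which links the ribosome to the inner membrane, had 80.4, 106 and 96.1 against 81.2, 80.1 and 82.6 CPM (-0.21 ± 0.14). The groups overlapped in all of these genes. The lowest value of the set was that of Mrps28, with 51.2, 54.8 and 52.6 CPM in DMSO and 29.4, 42.2 and 53.2 CPM in Yoda1 (-0.34 ± 0.22, edgeR, adjusted p 0.528). Mrpl14 and Mrpl54 had the widest spread within groups: Mrpl14 had 70.1, 94.2 and 152 CPM and Mrpl54 had 61.9, 83.9 and 133 CPM in Yoda1 4, 5 and 6, while DMSO libraries ran from 74.6 to 81.9 and from 99.97 to 105 CPM.

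Summed over members, the cytosolic genes took 2.58, 2.39 and 2.28% of all counts in DMSO 1 to 3 and 2.00, 2.34 and 2.71% in Yoda1 4 to 6. The means were 2.42 ± 0.15% and 2.35 ± 0.35% (SD, n = 3), so that the Yoda1 libraries enclosed the DMSO libraries. The mitochondrial members took 0.628, 0.625 and 0.594% in DMSO and 0.562, 0.622 and 0.749% in Yoda1, again with the Yoda1 libraries on both sides. The ratio of the cytosolic to the mitochondrial sum was 4.11, 3.83 and 3.85 in DMSO and 3.56, 3.77 and 3.62 in Yoda1. This ratio did not overlap between groups, at 3.93 ± 0.16 and 3.65 ± 0.11, and as a score over chosen members it was not tested. The ratio of the median levels per kb overlapped, with 4.52, 4.21 and 4.19 in DMSO and 4.26, 3.95 and 4.17 in Yoda1.

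**Figure D3:**
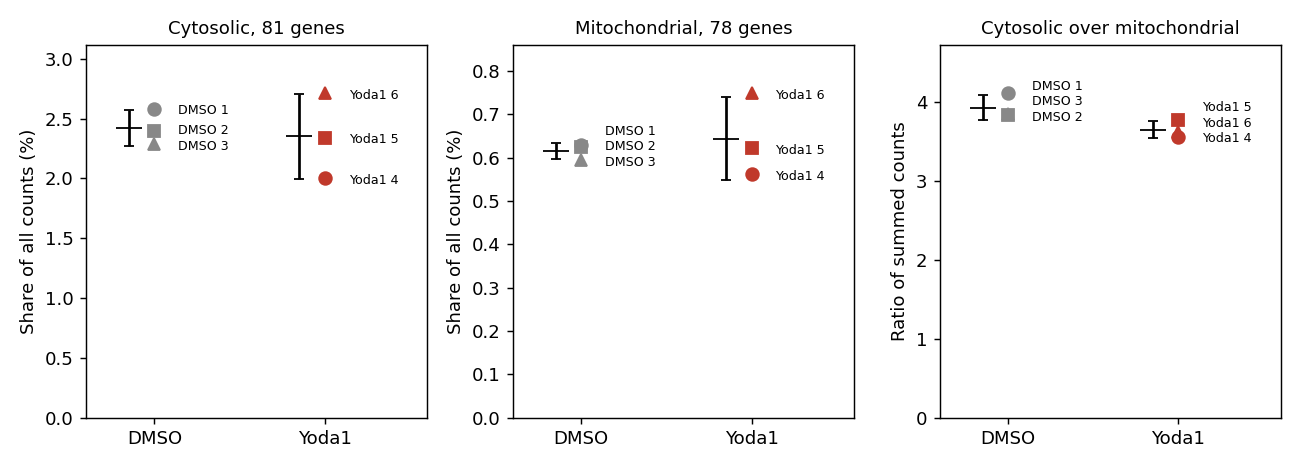
Share of all counts in percent taken by the 81 cytosolic and the 78 mitochondrial members, and the ratio of these sums, for each library (grey, DMSO; red, Yoda1), with the group mean and SD as a black bar. The Yoda1 libraries spread from 2.00 to 2.71% for the cytosolic members, beyond the DMSO range of 2.28 to 2.58%.

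Most cytosolic members, and many mitochondrial ones, shared an order of the 3 Yoda1 libraries. Yoda1 4 was the lowest of the 6 libraries for 70 of 81 cytosolic members (86.4%) and 33 of 78 mitochondrial members (42.3%), where it was the lowest for 19.7% of all tested genes. Yoda1 6 was the highest for 55 cytosolic (67.9%) and 52 mitochondrial members (66.7%), against 21.7% of all tested genes. The order Yoda1 4, then 5, then 6 from low to high was found in 74 of 81 cytosolic members, 41 of 78 mitochondrial members and 21.8% of all tested genes. For 47 cytosolic and 26 mitochondrial members every DMSO library lay between Yoda1 4 and Yoda1 6, as for 7.67% of all tested genes. These counts describe single libraries that are labelled as replicates and were not tested.

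As the difference of log2 CPM from a gene's mean over the 6 libraries, the cytosolic members had medians of 0.13, 0.01 and -0.06 in DMSO 1 to 3 and of -0.27, -0.01 and 0.23 in Yoda1 4 to 6. The mitochondrial members had 0.01, -0.03 and -0.09 in DMSO and -0.14, 0.03 and 0.29 in Yoda1. In both ribosomes the gap between Yoda1 4 and Yoda1 6 was wider than any gap among DMSO libraries.

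**Figure D4:**
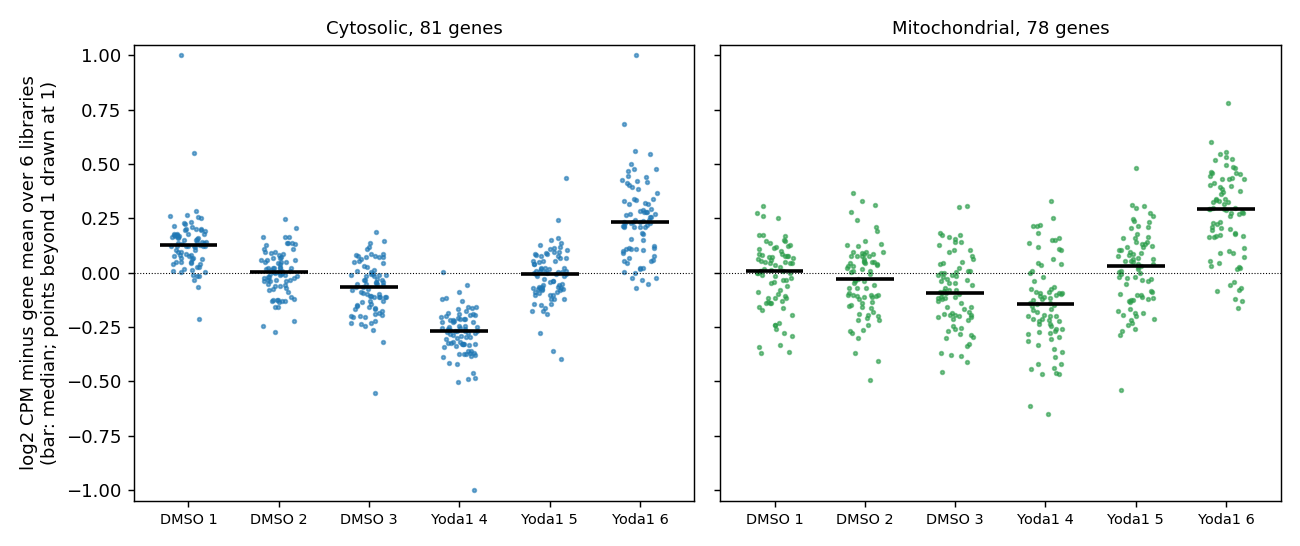
Difference of log2 CPM from the gene's mean over 6 libraries (y axis) for each member in each library (x axis), with the median over members as a black bar; points beyond 1 are drawn at 1. Among cytosolic members the median runs from -0.27 in Yoda1 4 to 0.23 in Yoda1 6, with the DMSO medians between.

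Short transcripts outside the ribosome showed the same order of libraries. Of other genes at 10 CPM or more, the 74 with a principal transcript of up to 600 bases had median differences of 0.06, 0.00 and -0.11 in DMSO 1 to 3 and -0.27, -0.03 and 0.35 in Yoda1 4 to 6. The 2336 with one over 4000 bases had 0.13 in Yoda1 4 and -0.14 in Yoda1 6, the opposite order. Median principal transcript lengths were 834 bases for cytosolic and 1302 for mitochondrial members, against 2906 for all tested genes. Among the 449 other genes of up to 1000 bases, Yoda1 4 was the lowest library for 50.8% and Yoda1 6 the highest for 69.5%, against 88.5% and 69.2% of the 52 cytosolic and 64.0% and 76.0% of the 25 mitochondrial members of that length. The 26 cytosolic members over 1000 bases gave 88.5% and 65.4%, and the 53 mitochondrial ones 32.1% and 62.3%. From 1500 to 2500 bases, median differences in Yoda1 4 and 6 were -0.24 and 0.21 over 8 cytosolic members. They were 0.11 and 0.17 over 11 mitochondrial members and 0.02 and 0.05 over other genes. The part of length in the order of the members was not tested.

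**Figure D5:**
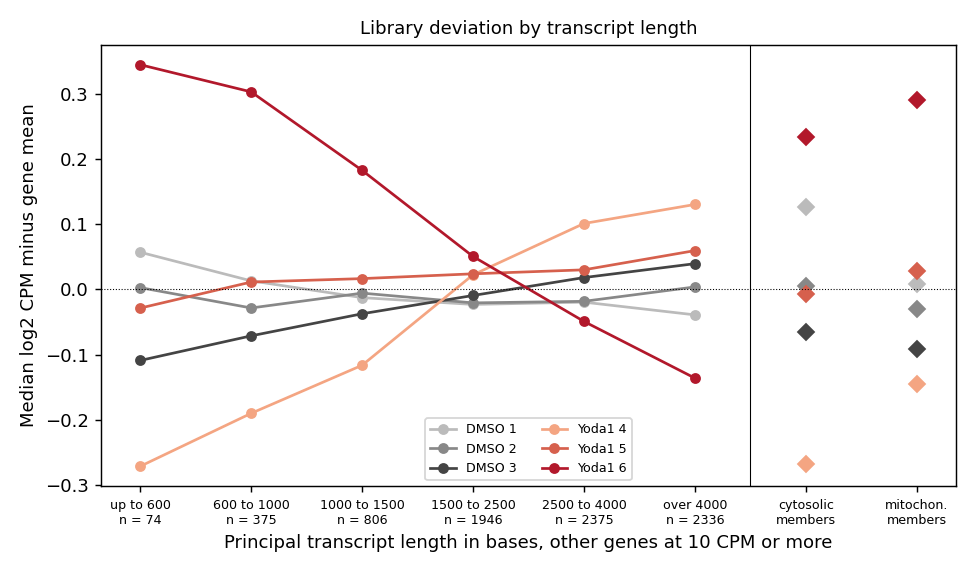
Median difference of log2 CPM from the gene mean (y axis) for genes outside the ribosome in 6 classes of principal transcript length in bases (x axis), 1 line per library; diamonds on the right give the medians of the cytosolic and mitochondrial members. Yoda1 6 falls from 0.35 for the shortest to -0.14 for the longest class, and Yoda1 4 goes from -0.27 to 0.13.

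With each library's trend with transcript length taken out, as an alternative chosen after seeing the data, Rps9 and Rps2 passed the threshold and Rps4x and Rpl21 came near it. Rps9 had a log2 fold change of -0.36 ± 0.06 (edgeR, adjusted p 0.0167) and Rps2 of -0.36 ± 0.07 (adjusted p 0.0342), where 2.23% of all genes were called lower and 1.04% higher. Rps4x had -0.34 (edgeR, adjusted p 0.066) and Rpl21 had -0.47 (edgeR, adjusted p 0.0735). No mitochondrial member passed; Mrpl1 had an adjusted p of 0.144 (edgeR). The median log2 fold change was then -0.08 over cytosolic and 0.05 over mitochondrial members. Single libraries moved these medians by as much. Without Yoda1 6 they were -0.16 and -0.03, without Yoda1 4 they were 0.11 and 0.20, and 0 members passed in edgeR in either case.

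Differences were also split by these start features, as a description with no test. The split rests on annotated starts, so members without a run may still have a TOP tract. The median log2 fold change was -0.01 over the 28 cytosolic members with a run of 8 or more pyrimidines near the start and 0.00 over the 31 without. For mitochondrial members it was 0.18 over the 12 with such a run and 0.08 over the 57 without. For the ETS core it was 0.01 over 24 cytosolic members with it and -0.04 over 35 without, and 0.09 over both the 25 mitochondrial members with it and the 44 without.

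Pseudogenes named after a member held a large share of the counts for few members. Copies under other names were not counted. The table holds 176 pseudogenes with cytosolic and 5 with mitochondrial ribosomal names, belonging to 60 members, and they held over 10% of the family's counts for 6 members. Besides Rps2 these were Rps18 with 29.8%, Rpl35a with 15.6%, Rpl36a with 14.02%, Rpl30 with 11.9% and Rpl3 with 11.6%.

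Ribosomal proteins that the naming rule does not match were like the members, with 0 of 11 called in either direction and a median log2 fold change of 0.04. Rack1, the scaffold on the head of the small subunit, had -0.18 ± 0.09, Gadd45gip1 0.41 ± 0.20 and Chchd1 0.50 ± 0.24. These had the smallest unadjusted p of the list, with adjusted p of 0.370, 0.381 and 0.396 (edgeR). Groups were apart in Rack1 and Gadd45gip1 and overlapped in Chchd1. Fau had 0.09 and Dap3, of the mitochondrial small subunit, 0.12. Rps3a1, which is neither a member nor in this list, had 0.10 ± 0.13 (edgeR, adjusted p 0.786). Among 22 translation factors and other transcripts with a TOP tract, 0 were higher and 2 lower, against 0.57% and 0.923% of all tested genes. The median log2 fold change of the 22 was -0.02. The 2 were Vim, which encodes the filament protein vimentin, at 1595, 1690 and 1662 CPM in DMSO and 1039, 987 and 916 CPM in Yoda1 (log2 fold change -0.75 ± 0.07, edgeR, adjusted p 0.00452), and Hnrnpa1, which encodes a splicing regulator, at 248, 273 and 252 against 176, 181 and 149 CPM (-0.61 ± 0.11, edgeR, adjusted p 0.041). Neither is a translation factor, and the groups were apart in both. Eif3e, a subunit of an initiation factor, had 0.40 ± 0.10 (edgeR, adjusted p 0.102).

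Of 24 genes of initiation and elongation control, 0 were called in either direction, with a median log2 fold change of -0.03. Pdcd4, an inhibitor of the helicase eIF4A, came nearest, with 28.6, 32.8 and 23.3 CPM in DMSO and 52.1, 66.8 and 50.01 CPM in Yoda1 (0.99 ± 0.20, edgeR, adjusted p 0.0545). Its groups were apart. The cap-binding protein Eif4e had -0.27 ± 0.10 and Eif5a, an elongation factor that carries hypusine, -0.31 ± 0.08, both uncalled. Of 33 genes of ribosome assembly and quality control, 0 were called and the median was 0.05. Sbds, which acts in the release of eIF6 from the large subunit, had 0.45 ± 0.11 (edgeR, adjusted p 0.0914), the kinase Riok2 0.95 ± 0.28 and the assembly factor Tsr1 -0.52 ± 0.17, both uncalled.

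On the mitochondrial side, 0 of 25 translation factors were called, with a median log2 fold change of 0.15. The elongation factor Gfm1 had -0.50 ± 0.15, the membrane insertase Oxa1l 0.42 ± 0.19 and the isoleucyl-tRNA synthetase Iars2 0.50 ± 0.25. Of 23 assembly factors, 1 was higher and 0 lower, against 0.57% and 0.923% of all tested genes. The median log2 fold change of the 23 was 0.18. The 1 was Mterf4, which acts with the methyltransferase NSUN4 in assembly of the mitochondrial ribosome, at 11.8, 10.7 and 13.4 CPM in DMSO and 27.9, 30.3 and 26.7 CPM in Yoda1 (1.25 ± 0.21, edgeR, adjusted p 0.0307). Rpusd4 had 0.60 ± 0.19 and Noa1 -0.50 ± 0.20, both uncalled.

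The messages that the mitochondrial ribosome translates were also examined. Of 13, 0 were higher and 2 lower, against 0.57% and 0.923% of all tested genes. The median log2 fold change was -0.36, with 6 positive and 7 negative. The 2 were mt-Atp6, a subunit of ATP synthase, at 189, 196 and 195 CPM in DMSO and 100.5, 116 and 104 CPM in Yoda1 (-0.86 ± 0.11, edgeR, adjusted p 0.00887), and mt-Cytb, of respiratory complex III, at 639.9, 602 and 581 against 381, 448 and 339 CPM (-0.64 ± 0.11, edgeR, adjusted p 0.0356). The groups were apart in both. mt-Atp8, whose reading frame overlaps that of mt-Atp6, had -1.11 ± 0.23 (edgeR, adjusted p 0.0599), and mt-Co1 went the other way with 393, 368 and 350 CPM in DMSO and 750, 870 and 319 CPM in Yoda1. Summed over all genes with mt- names, the share of all counts was 0.293 ± 0.017% in DMSO and 0.293 ± 0.051% in Yoda1 (SD, n = 3). In this share the Yoda1 libraries lay on both sides of the DMSO libraries. The difference between the 13 messages and the ribosomal protein genes was not tested.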

How the data were processed

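Libraries of 6 samples, 3 per group, were analysed. The authors deposited 1 table of expected counts, reads per gene estimated by a method that can give fractions; the build was mm10, per the submitters' processing notes, and the Partek software is named per the file headers and name. The aligner, counting method, strand setting and annotation were not given in the sources used here. In the design text the control is PBS, in the sample labels DMSO, which was followed. Counts were rounded and tested in edgeR 4.0.16 (R 4.3.3; TMM factors, filterByExpr with minimum count 10 and total 15, glmQLFit, glmQLFTest, Benjamini-Hochberg over 13325 genes, threshold 0.05). The SE is the log2 fold change over the root of F. CPM use TMM factors, except in the marker sums and the limit for a gene at 0, which use library totals. Lengths and positions come from GENCODE M21 (GRCm38) and promoter windows from RefSeq. Scripts were tested on simulated data. Alternatives used DESeq2 1.42.0 and limma 3.58.1, other factors and filters, label terms and left-out libraries.

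The limit that a gene at 0 allows (3 counts; counting error only) was 0.0949 CPM in the deepest and 0.211 CPM in the shallowest library. The labels do not say whether each library had its own mice; the p-values therefore cover only spread between libraries, which may be technical. A label number is shared by DMSO 2 and 3 (19) and by Yoda1 4 and 5 (21), so each pair may not be independent; counts of replicate libraries differed by more than sampling noise (chi-square per degree of freedom, 18.1 or more). Members and lists were chosen with earlier results of these data known. Named were members of known role, those passing the threshold, the 5 with the smallest p per ribosome and direction, the highest and lowest per kb, the most and least variable, and up to 3 per related list; others named were chosen after their values were seen. A gene that this rule selects and that is withheld is left out of the text, though it was kept in every test.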

Additional observations from a re-analysis of the deposited data

How the results depend on the processing

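The count of 0 called members was unchanged under other scaling factors, limma voom, both other filters, the label suffix as a term, summing of libraries with a shared label number, addition of pseudogene counts, and with each library left out. The exceptions were DESeq2, which called 1 cytosolic (Rps2) and 1 mitochondrial member (Mrpl1), and removal of the trend with transcript length, which called 2 cytosolic members (Rps2 and Rps9). Over all genes the 199 calls became 926 with DESeq2, 300 with limma voom, 448 with a minimum of 10 CPM in 3 libraries, 3 with the label suffix as a term, 1 with summed libraries and 436 with the length trend removed. With 1 library left out they ran from 9 (without DMSO 3) to 220 (without Yoda1 6); the counts were 34 without DMSO 1, 22 without DMSO 2 and 34 without Yoda1 5. The suffix term set DMSO 1 and 2 (suffix 0) apart from all other libraries, so that fit compares Yoda1 with DMSO 3 alone. Its counts and adjusted p-values are therefore not comparable with those of the main fit. The cause of the other moves was not tested. The median log2 fold change ran from -0.16 to 0.11 over cytosolic and from -0.03 to 0.20 over mitochondrial members with 1 library left out, and the Yoda1 minus DMSO difference in share of counts from -0.25 to 0.11 and from -0.02 to 0.07 percentage points, so that no direction holds for either set. The median level per kb moved from 121 to 245 (longest transcript) and 299.7 (principal transcript) for cytosolic and from 29.7 to 41.0 and 54.2 for mitochondrial members. Of 57 named members, 36 kept 1 sign in all fits, and 0 called values changed sign. No paired analysis was possible because the replicate numbers are 1 to 3 in DMSO and 4 to 6 in Yoda1 and pair no libraries. The intervals printed with the members give the size of difference that 3 libraries a group could resolve.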
